A study of Mus musculus with 4 samples.

Results

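The vesicular transporters that load glutamate, GABA and zinc into synaptic vesicles were described in neurons of the mouse ventromedial prefrontal cortex (vmPFC). The members were 5 named genes of the 31053 genes in the count tables: Slc17a7 (VGLUT1), Slc17a6 (VGLUT2) and Slc17a8 (VGLUT3) for glutamate, Slc32a1 (VGAT) for GABA and Slc30a3 (ZnT3) for zinc. They were chosen by name and not by a rule on their values, although earlier results of these data were known. Male C57BL/6 mice, labelled as 8 weeks of age, had all received rAAV2-retro viruses in 5 targets of this cortex, which were the agranular insula, dorsomedial striatum, mediodorsal thalamus, basolateral amygdala and lateral hypothalamus. Each virus carried EGFP with a target-specific barcode driven by a short CAG promoter, and no animal without virus was included. The prelimbic and infralimbic areas were then dissociated for droplet-based 3' single-cell RNA-seq, giving 3 libraries without sorting, titled mouse 1, 2 and 3 (here unsorted 1, 2 and 3), and 1 library sorted for EGFP from a pool of 3 other mice.

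Vesicular transporters use the proton gradient of the vesicle pump to concentrate a transmitter, and which of them a neuron makes largely sets which transmitter it releases. VGLUT1 is the usual glutamate transporter of cortical pyramidal neurons, VGLUT2 is the usual one of thalamic and other subcortical neurons, and VGLUT3 is found in scattered neurons that otherwise use another transmitter, among them some cortical interneurons. VGAT loads GABA and glycine in inhibitory neurons, and ZnT3 fills glutamatergic vesicles with zinc, which can be released with the transmitter and act on nearby receptors.

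In the GRCm38 annotation (GENCODE M21) all members are protein-coding genes. Slc17a6 (ENSMUSG00000030500) lies at chr7:51622006-51671119 on the plus strand and Slc17a7 (ENSMUSG00000070570) at chr7:45163949-45176142 on the plus strand. Slc17a8 (ENSMUSG00000019935) lies at chr10:89574020-89621253 on the minus strand, Slc32a1 (ENSMUSG00000037771) at chr2:158610767-158615748 on the plus strand and Slc30a3 (ENSMUSG00000029151) at chr5:31086106-31108237 on the minus strand. Slc17a6 and Slc17a7 each overlap another annotated gene on their own strand (Gm45072 and Mir7055), whose reads the counting could have shared with them. The genes that overlap Slc32a1 (Gm14205) and Slc30a3 (Gm9924 and Dnajc5g) lie on the opposite strand, and Slc17a8 overlaps none.

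The proximal promoters of Slc17a6 and Slc17a8 are shown because both genes were highest in the same neurons, and that of Slc30a3 because its level differed widely between subtypes of the same layer. They were read from RefSeq (GRCm38.p6) as up to 250 bases before the most upstream of 2 listed starts of each gene, 5' to 3' on the gene's strand, without bases inside an annotated exon. Capitals mark matches to a GC box (GGGCGG), an E-box (CAGATG) or a TATA box (TATAAA) on either strand.
Slc17a6: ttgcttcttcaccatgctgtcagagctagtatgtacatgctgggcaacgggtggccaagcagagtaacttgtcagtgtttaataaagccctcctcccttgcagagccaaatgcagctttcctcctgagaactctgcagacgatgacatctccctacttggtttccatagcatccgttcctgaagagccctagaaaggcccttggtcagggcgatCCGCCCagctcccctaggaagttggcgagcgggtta
Slc17a8: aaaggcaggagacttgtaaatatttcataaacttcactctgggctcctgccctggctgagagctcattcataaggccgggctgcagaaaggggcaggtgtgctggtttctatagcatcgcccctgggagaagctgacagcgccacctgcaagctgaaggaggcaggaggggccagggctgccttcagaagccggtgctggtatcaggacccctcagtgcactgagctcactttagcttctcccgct
Slc30a3: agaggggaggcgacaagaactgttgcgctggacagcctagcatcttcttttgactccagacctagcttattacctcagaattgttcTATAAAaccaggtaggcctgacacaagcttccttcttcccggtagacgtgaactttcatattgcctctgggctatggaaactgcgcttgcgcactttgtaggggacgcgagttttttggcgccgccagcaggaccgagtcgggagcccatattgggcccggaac
The Slc17a6 window (chr7:51621580-51621829, plus strand, 53.2% G and C) held 1 GC box. The Slc17a8 window (chr10:89621254-89621499, minus strand, 56.9%) held none of these letters, and the Slc30a3 window (chr5:31108245-31108494, minus strand, 53.2%) held 1 TATA box. Among 32536 mouse promoters of the same kind, 33.0% held the GC box, 14.4% the E-box and 12.3% the TATA box, and the median G and C content was 52.4%. Such matches are a description of the letters and not of binding.

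Excitatory neurons were the 9368 cells of the deposited metadata, which carry the authors' label of 7 subtypes, and 7765 of them were unsorted (2816, 2486 and 2463 in unsorted 1, 2 and 3). Inhibitory cells were the filtered cells absent from that table with at least 4 UMIs of Gad1 and Gad2 (the GABA-synthesising enzymes) and at most 3 of Slc17a7. Unsorted 1, 2 and 3 gave 443, 453 and 382 of them, and 5 came from the sorted library. The labels fitted the markers, with Neurod2 in 93.8% and Tbr1 in 93.9% of excitatory neurons, and with Dlx1, an interneuron transcription factor, in 84.4% of inhibitory cells, where Neurod2 was found in 2.35%. The libraries held 54749198 to 87841541 UMIs. Median depth was 21344 to 23213 UMIs per unsorted excitatory neuron, 31669 per sorted neuron and 13277 to 14101 per unsorted inhibitory cell. Of all 24801 cell barcodes, 82 occurred in more than 1 library.

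Levels are CPM, the UMIs of a gene per 1000000 gene UMIs of the cells summed within 1 library, given as mean ± SD over the 3 unsorted libraries. The labels name a different mouse for each of these libraries, and the spread may also hold technical differences. In a sum, fewer expressing cells and less RNA per cell cannot be told apart, so the share of cells with at least 1 UMI is given as well. The subtypes had been made by clustering these cells on their expression, so the levels across subtypes are a description without a test. As 3' tags were counted, a UMI stands for a molecule whatever the length of its transcript, and shares of UMIs between the glutamate transporters rest on this.

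Slc17a7, the glutamate transporter of cortical pyramidal neurons, was found in at least 99.5% of the neurons of every subtype in every unsorted library, as its expression had been used to extract them. Its level still differed between subtypes. It was 1276, 1233 and 1257 CPM in the deep-layer L5-S100b neurons of unsorted 1, 2 and 3 (1255 ± 21.2, SD, n = 3), and 703, 716 and 694 CPM in L5-Htr2c neurons (704 ± 11.6). All L5-S100b values lay above all values of the other subtypes and all L5-Htr2c values lay under them. The ratio of these levels was 1.78-fold (log2 0.83 ± 0.04, SD over libraries). Between them stood L6-Npy (1105 ± 14.4 CPM), L6-Syt6 (1011 ± 12.4), L2/3-Rorb (982 ± 18.0), L5-Bcl6 (845 ± 25.8) and L2/3-Calb1 (768 ± 25.3). L6-Syt6 and L2/3-Rorb overlapped in range, and no other neighbours in this order did. Of 10089 genes compared in the same way over the unsorted libraries, 2.61% had all L5-S100b values above all values of the other subtypes. For 7.95% all L5-Htr2c values lay below all others.

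Slc17a6, the transporter better known from subcortical neurons, had the opposite extreme. It reached 175, 185 and 183 CPM in L5-Htr2c neurons (181 ± 5.17, SD, n = 3), where 86.9% of cells had a UMI, and 26.6, 26.8 and 27.9 CPM in L6-Syt6 neurons (27.1 ± 0.723), where 38.7% did. These ranges did not overlap, and the ratio was 6.68-fold (log2 2.74 ± 0.04). L5-Bcl6 followed at 14.9 ± 2.19 CPM, L2/3-Rorb at 6.36 ± 0.940, L5-S100b at 3.28 ± 0.545, L2/3-Calb1 at 1.29 ± 1.83 and L6-Npy at 0.536 ± 0.376. The ranges of L5-S100b and L2/3-Calb1 overlapped, as did those of L2/3-Calb1 and L6-Npy. For comparison, 1.42% of microglia-like cells, which should lack these transporters, had a Slc17a6 UMI at a median depth of 4326 UMIs, against 14549 in L5-Htr2c neurons. When cells were thinned to 2000 UMIs, the shares were 0.467% of microglia-like cells and 28.8% of L5-Htr2c neurons.

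Slc17a8 was restricted further. It stood at 47.2, 60.0 and 43.1 CPM in L5-Htr2c neurons (50.1 ± 8.84, SD, n = 3) and at no more than 0.900 CPM in any other subtype of any unsorted library. A UMI was found in 32.2% of L5-Htr2c neurons, against 0.186% of microglia-like cells, and these shares were 8.42% and 0.129% at 2000 UMIs per cell. The other 6 subtypes overlapped in range with their neighbours. In L5-Bcl6 there was no Slc17a8 UMI among 7485672, which allows a level of up to 0.401 CPM (counting error only). For 11.2% of the 10089 genes compared, all L5-Htr2c values of the unsorted libraries lay above all values of the other subtypes.

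The L5-Htr2c neurons thus carried all 3 vesicular glutamate transporters. Of their summed glutamate transporter UMIs, 75.3% ± 0.721 were Slc17a7, 19.4% ± 0.507 were Slc17a6 and 5.34% ± 0.808 were Slc17a8 (SD, n = 3). The Slc17a6 share was 2.61% ± 0.0685 in L6-Syt6 and 1.73% ± 0.212 in L5-Bcl6, and it stayed under 0.8% in the other subtypes. Among 302 unsorted L5-Htr2c neurons thinned to 10000 UMIs, 242 had a Slc17a6 UMI, 76 a Slc17a8 UMI and 56 both. The 56 are 18.5% of these neurons, and independent detection of both genes would give 20.2%. All 302 kept a Slc17a7 UMI.

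**Figure D1:**
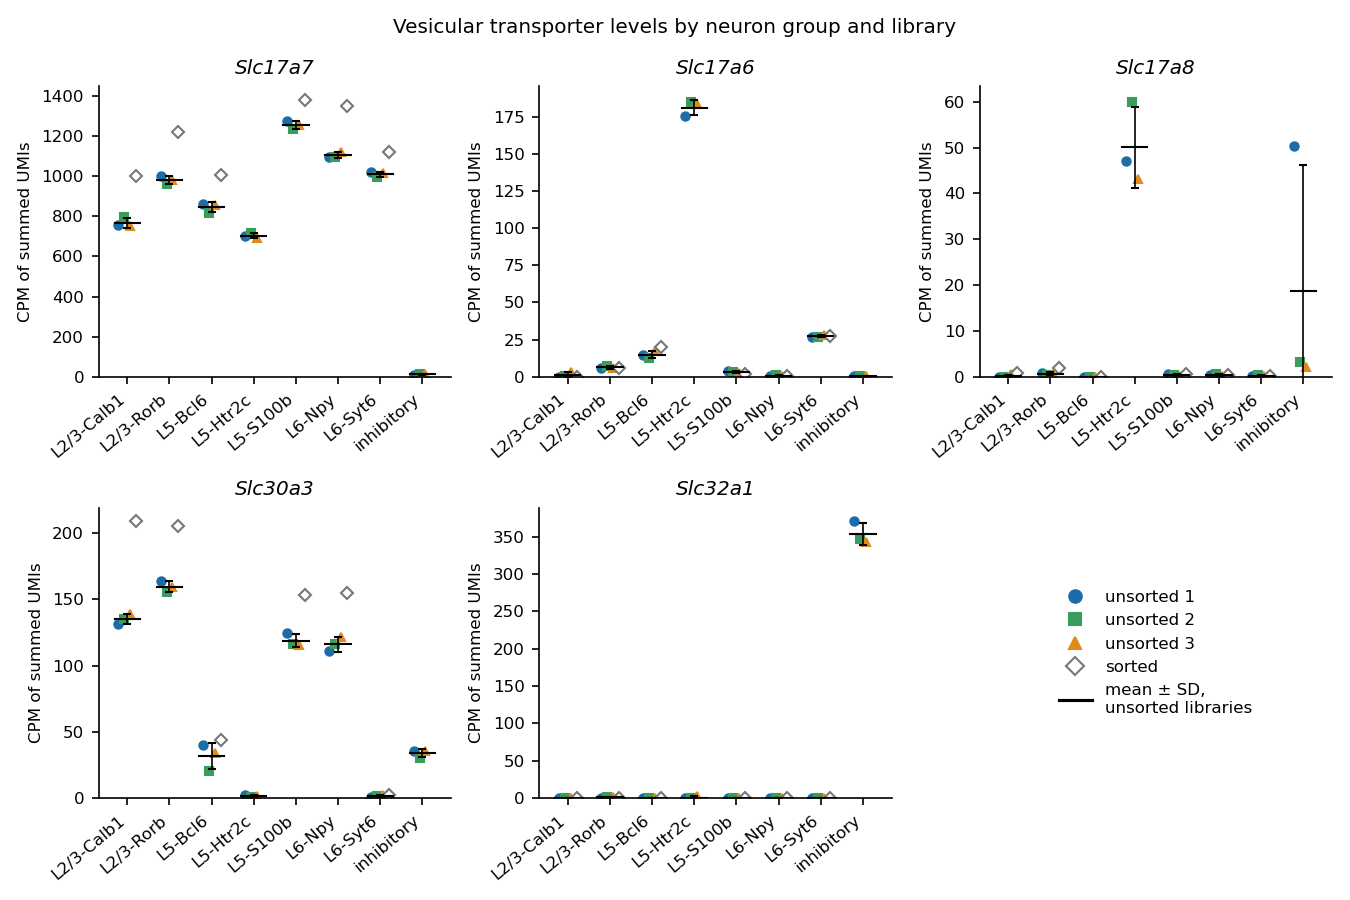
CPM of each member (y axis, linear, a scale of its own per gene) in the 7 excitatory subtypes and in inhibitory cells (x axis), with a point per library and black bars for the mean ± SD of the 3 unsorted libraries. Slc17a6 and Slc17a8 peak in L5-Htr2c at 181 and 50.1 CPM, Slc30a3 is near 0 in L5-Htr2c and L6-Syt6, Slc32a1 is seen in inhibitory cells at 343 to 370 CPM, and inhibitory Slc17a8 stands apart in unsorted 1 (50.4 CPM).

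Slc30a3, which loads vesicles with zinc, divided the subtypes in another way. It was 164, 155 and 159 CPM in the upper-layer L2/3-Rorb neurons (159 ± 4.30, SD, n = 3) and 1.26, 1.65 and 2.42 CPM in L6-Syt6 neurons (1.78 ± 0.591). The ratio was 93.0-fold, ran from 65.7-fold to 130-fold over the 3 libraries and was 62.7-fold as a mean over cells. L2/3-Calb1 (135 ± 3.60 CPM), L5-S100b (119 ± 4.94) and L6-Npy (116 ± 5.48) lay near the top, the last pair with overlapping ranges. L5-Htr2c had 1.66 ± 0.855 CPM and overlapped L6-Syt6. L5-Bcl6 stood between these groups with 40.4, 20.9 and 33.8 CPM (31.7 ± 9.97), apart from both. For 3.94% of all genes compared, all L2/3-Rorb values of the unsorted libraries lay above all values of the other subtypes.

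Layer alone did not order Slc30a3. L6-Npy and L6-Syt6 share the layer in their names and differed 67.7-fold (50.2-fold to 87.8-fold over libraries, and 43.3-fold as a mean over cells), and within L5 the level was 119 CPM in L5-S100b, 31.7 in L5-Bcl6 and 1.66 in L5-Htr2c. At 10000 UMIs per cell, 72.5% of L2/3-Rorb, 70.2% of L2/3-Calb1, 61.7% of L6-Npy and 59.1% of L5-S100b neurons had a Slc30a3 UMI, against 17.7% in L5-Bcl6, 1.02% in L6-Syt6 and 0.646% in L5-Htr2c. Before thinning these shares were 91.5%, 84.7%, 76.9%, 72.8%, 30.3%, 1.91% and 2.46%. At 2000 UMIs per cell, 0.379% of L6-Syt6 and 0.613% of L5-Htr2c neurons had a UMI, against 0.528% of microglia-like and 0.382% of endothelial-like cells. The L6-Syt6 share was thus not above those of cells that should lack the gene. The L5-Htr2c share was slightly above both, with ranges over libraries that overlapped theirs. The folds over these subtypes therefore carry no exact size. Some microglia-like cells hold neuronal RNA, as 6.31% of them had a Slc17a7 UMI at this depth and 100 of 3183 held 2460 of their 2733 Slc17a7 UMIs, and what this adds to their Slc30a3 share was not tested. The subtypes lowest in Slc30a3 were those highest in Slc17a6, and Pearson's r between the genes was -0.86 over 21 sums on the log2(CPM + 1) scale. These sums come from 7 subtypes in 3 libraries, and sums of 1 library share its depth, so r is a description.

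**Figure D2:**
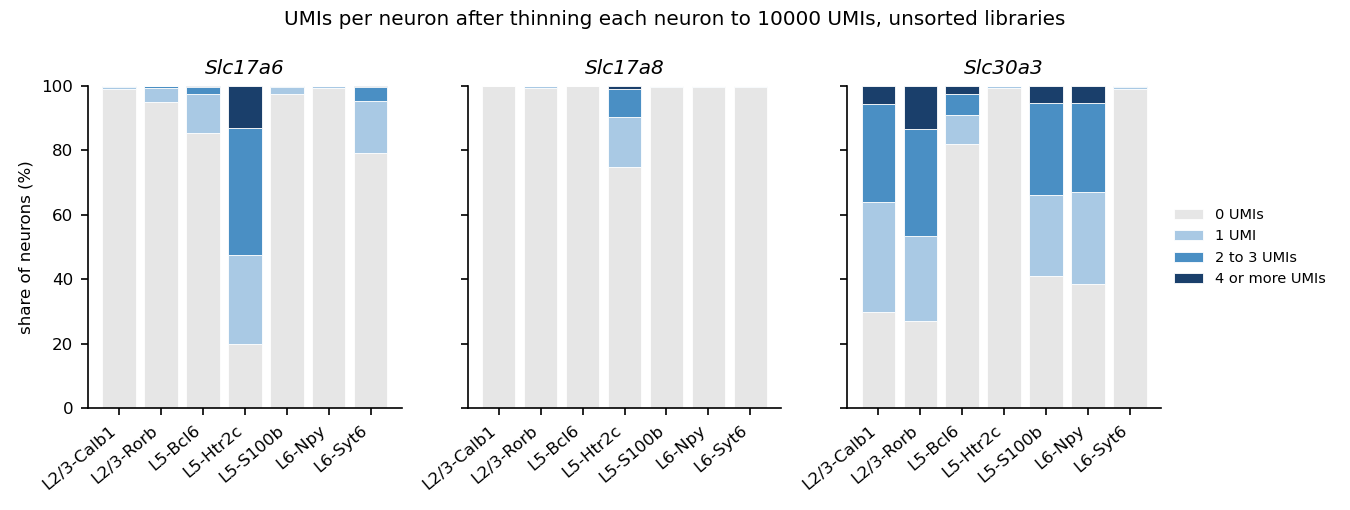
Share of unsorted neurons (y axis, percent) with 0, 1, 2 to 3, or 4 or more UMIs of Slc17a6, Slc17a8 and Slc30a3 in each subtype (x axis), after each neuron was thinned to 10000 UMIs. In L5-Htr2c 52.3% of neurons keep 2 or more Slc17a6 UMIs and 9.60% keep 2 or more of Slc17a8, and 46.6% of L2/3-Rorb neurons keep 2 or more Slc30a3 UMIs.

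In the sorted library Slc17a7 and Slc30a3 stood above the range of the unsorted libraries in 6 of 6 subtypes with enough cells. Slc17a7 was 1382 CPM in sorted L5-S100b and 1353 CPM in sorted L6-Npy neurons. Slc30a3 was 205 CPM in sorted L2/3-Rorb and 209 CPM in sorted L2/3-Calb1 neurons. Of 7917 genes, 30.3% were above in all 6 subtypes, and over all excitatory neurons 56.8% of 8907 genes were above, so the position of these members was shared by many genes. Slc17a6 in sorted L6-Syt6 neurons (27.3 CPM) lay within the unsorted range. Slc30a3 in L6-Syt6 was barely above, at 2.422 against an unsorted maximum of 2.421 CPM, and below the unsorted range with cells thinned to 10000 UMIs (1.353 against 1.503 to 2.657 CPM). With 1 sorted library there is no replicate, and sorting, animals and depth cannot be told apart.

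Excitatory and inhibitory cells of the same libraries were compared next, with edgeR's quasi-likelihood test, the library as a block and Benjamini-Hochberg adjustment over 15744 genes. A gene was called at an adjusted p under 0.05 and a log2 difference of at least 0.5 either way, and this held for 40.4% of genes. Markers of other cells were higher in the inhibitory sums: 6 microglial markers summed to 53.8 to 163 CPM against 1.79 to 17.0 in excitatory sums, 6 endothelial markers to 24.3 to 132 against 5.55 to 11.3, 4 oligodendrocyte markers to 105 to 165 against 68.9 to 70.7, and 4 astrocyte markers to 7.79 to 14.3 against 1.44 to 4.46, with no marker of these lists at 0 in inhibitory sums. The part of oligodendrocyte and astrocyte RNA in the results was not tested. Without the 37 inhibitory cells that also passed a microglial or endothelial limit, an alternative added after seeing the data, the tested members were called again with log2 differences of 5.72 (Slc17a6), -3.18 (Slc17a8), -9.73 (Slc32a1) and 0.61 (Slc30a3). The 4 members tested were all called, and Slc17a7 was not tested because it chose the cells. Slc32a1, the GABA transporter, was 370, 347 and 343 CPM in inhibitory cells of unsorted 1, 2 and 3, and at most 0.514 CPM in all excitatory neurons of a library. The groups lay far apart (log2 difference, excitatory minus inhibitory, -9.70, SE 0.08, edgeR adjusted p = 7.93e-49). Both groups had been chosen on expression, the inhibitory cells by the GABA-synthesis genes Gad1 and Gad2. A separation of the GABA transporter was thus largely built into the choice, and its p-value is no independent support. A Slc32a1 UMI was found in 96.3% ± 0.289 of inhibitory cells (SD, n = 3), against 1.24% of microglia-like cells, and these shares were 50.3% and 0.466% at 2000 UMIs per cell. Within subtypes Slc32a1 reached 2.61 CPM at most (L5-Htr2c), and L5-Bcl6 had no UMI among 7485672, which allows up to 0.401 CPM. In neurons with 3 or fewer Gad1 and Gad2 UMIs, the highest values were 0.663 CPM in L5-Htr2c and 0.680 CPM in L2/3-Rorb.

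Slc17a6 was higher in the sum of excitatory neurons, with 21.6, 21.9 and 22.4 CPM against 0.628, 0.153 and 0.684 CPM in inhibitory cells (log2 difference 5.62, SE 0.20, edgeR adjusted p = 1.26e-25). This did not hold for each subtype. The ranges of L6-Npy (0.172 to 0.923 CPM) and L2/3-Calb1 (0 to 3.39 CPM) overlapped that of inhibitory cells, while L5-Htr2c had 181 CPM and L6-Syt6 27.1 CPM on average. Slc30a3 was 49.6, 46.0 and 49.9 CPM in excitatory neurons and 35.5, 30.4 and 35.6 CPM in inhibitory cells. The groups did not overlap, and the log2 difference was 0.64 (SE 0.06, edgeR adjusted p = 5.70e-12). The excitatory sum mixes the subtypes with and without Slc30a3 described above, in proportion to their cells.

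Slc30a3 was also uneven among inhibitory cells. They were divided by the genes that mark their origin, Lhx6 for cells of the medial ganglionic eminence and Adarb2 for those of the caudal eminence, into 421 Lhx6 cells and 795 Adarb2 cells of the unsorted libraries. Sst was found in 86.2% of Lhx6 cells and Vip in 64.0% of Adarb2 cells, against 5.28% and 7.13% in the other group. Slc30a3 was 69.3, 64.0 and 73.2 CPM in Lhx6 cells and 5.89, 6.01 and 6.69 CPM in Adarb2 cells. All Lhx6 values thus exceeded all Adarb2 values and also the excitatory mean of 48.5 CPM. The log2 difference (Adarb2 minus Lhx6) was -3.47 (SE 0.14, edgeR adjusted p = 2.01e-16), in a comparison where 21.3% of 11861 genes were called. A UMI was found in 59.7% of Lhx6 cells at a median depth of 17789 UMIs and in 7.02% of Adarb2 cells at 11141. At 10000 UMIs per cell the shares were 43.9% and 6.50%.

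Slc32a1 did not pass the test between these groups (368, 335 and 334 CPM in Lhx6 cells, 379, 350 and 350 CPM in Adarb2 cells, log2 difference 0.05, SE 0.05, edgeR adjusted p = 0.445). Slc17a7 was at 11.5 to 15.5 CPM in Lhx6 cells and 9.13 to 13.4 CPM in Adarb2 cells, a description only, since a limit of 3 UMIs chose the cells. Slc17a6 was too low to test. By marker peptide, 368 cells with at least 20 Sst UMIs had 73.0 ± 2.00 CPM of Slc30a3 (SD, n = 3) and 454 cells with at least 20 Vip UMIs had 5.09 ± 0.571. These marker groups were chosen after the values by lineage had been seen. The 38 cells with at least 5 Pvalb UMIs and few of Sst gave 79.5, 16.0 and 36.7 CPM, too few and too spread to place.

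**Figure D3:**
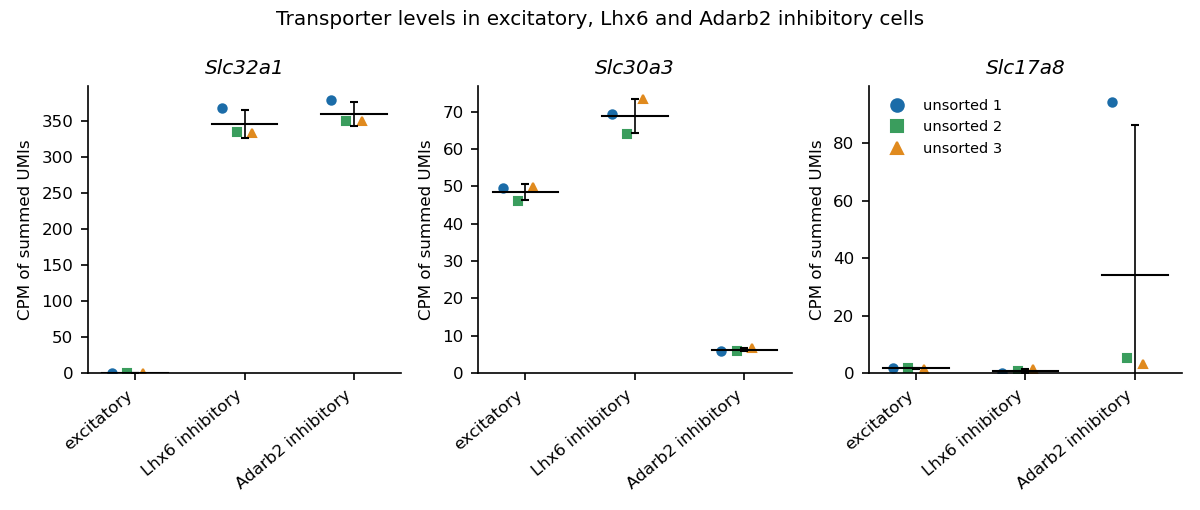
CPM of Slc32a1, Slc30a3 and Slc17a8 (y axis, linear, a scale of its own per gene) in all excitatory neurons, Lhx6 inhibitory cells and Adarb2 inhibitory cells (x axis), with a point per unsorted library and black bars for the mean ± SD. Slc30a3 lies at 64.0 to 73.2 CPM in Lhx6 cells and at 5.89 to 6.69 CPM in Adarb2 cells, while the Adarb2 value of Slc17a8 is 94.3 CPM in unsorted 1 and under 6 CPM in the others.

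Slc17a8 in inhibitory cells depended on 1 library. It was 50.4 CPM in unsorted 1 but 3.21 and 2.22 CPM in unsorted 2 and 3, against 1.58, 1.84 and 1.34 CPM in excitatory neurons. The log2 difference (excitatory minus inhibitory) was -2.99 (SE 0.38, edgeR adjusted p = 4.44e-09). Without unsorted 1 it was -0.66 and did not pass (edgeR adjusted p = 0.0750), and with DESeq2 it was -1.88 with an adjusted p of 0.155. Between lineages Slc17a8 was 94.3, 5.19 and 3.19 CPM in Adarb2 cells and 0, 0.762 and 1.23 CPM in Lhx6 cells (log2 difference 5.62, SE 0.49, edgeR adjusted p = 9.67e-10). DESeq2 gave 3.78 with an adjusted p of 0.236, and without unsorted 1 or without unsorted 2 the gene was too low to be tested.

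These UMIs came from few cells. Of 355 Slc17a8 UMIs in unsorted inhibitory cells, 348 were in 15 cells with 3 or more each (median 19, highest 64), and 12 of these cells, with 320 UMIs, were in unsorted 1, 2 in unsorted 2 and 1 in unsorted 3. The 15 cells, looked at after their values were seen, all had UMIs of Slc32a1, Adarb2, Cck (30 to 315 UMIs) and Cnr1 (67 to 664 UMIs), genes known from cholecystokinin basket cells. None of them had a UMI of Lhx6, Vip, Lamp5 or Slc17a6, and 11 had Sncg. Of other markers, Pvalb was found in 4 of them (at most 2 UMIs) and Sst in 2 (at most 1 UMI). Slc17a7 was found in 1. Their median depth was 24332 UMIs, against 13489 in inhibitory cells with no Slc17a8 UMI.

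The last comparison asked whether members differed between neurons with a strong viral signal and neurons in which none was detected. The count tables used here hold a feature that was taken as the sum of all 5 barcodes, so targets could not be separated in them. The paper states that barcode count matrices are also available, and these were not used. Neurons with 5 or more viral UMIs (barcode-high) were set against those with none (barcode-zero) in the 4 subtypes with at least 10 cells on each side in all 4 libraries. Barcode-high neurons were deeper, for example 25554 to 34389 against 19307 to 28185 UMIs (medians per library) in L5-S100b. Counts were again tested with edgeR and the library as a block.

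In L5-S100b neurons Slc30a3 rose with the barcode in each of the 4 libraries. It was 88.8, 60.5, 72.5 and 98.6 CPM in barcode-zero neurons of unsorted 1, 2, 3 and the sorted library, and 136, 123, 128 and 171 CPM in barcode-high neurons. These ranges did not overlap. The log2 difference (high minus zero) was 0.83 (SE 0.09, edgeR adjusted p = 8.88e-08), in a contrast where 2.64% of 12030 genes were called, and 0.87 with all cells thinned to 10000 UMIs. The share of neurons with a UMI went from 45.8% ± 6.43 to 83.0% ± 1.64 (SD, n = 4). The barcode-zero sums rested on 74, 43, 54 and 24 neurons. Within libraries, 2 of 4 lists of glial and endothelial markers were also higher in barcode-high neurons in 4 of 4 libraries. The 6 microglial markers summed to 14.0, 11.9, 13.5 and 0 CPM in barcode-zero and 19.8, 12.1, 16.4 and 3.03 CPM in barcode-high neurons, all 6 being at 0 in the sorted barcode-zero sum. The 4 oligodendrocyte markers summed to 122 to 131 and 128 to 132 CPM, and the astrocyte and endothelial lists went both ways. Their part in the Slc30a3 result was not tested.

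Slc17a7 in the same subtype was 1107, 1058, 1041 and 1306 CPM in barcode-zero and 1309, 1267, 1302 and 1394 CPM in barcode-high neurons. It was higher in barcode-high neurons in 4 of 4 libraries, although the ranges overlapped. The log2 difference of 0.27 (SE 0.05, edgeR adjusted p = 1.42e-04) was under the fold limit, so it was not called, and without the library block the adjusted p was 0.419. In L2/3-Rorb, where 0.142% of 10572 genes were called, Slc30a3 was 158 to 205 CPM in barcode-zero and 149 to 206 CPM in barcode-high neurons (log2 difference -0.15, SE 0.09, edgeR adjusted p = 0.784). In L6-Npy, where 0.775% of 10839 genes were called, it was 111 to 166 and 107 to 132 CPM (log2 difference -0.10, SE 0.08, edgeR adjusted p = 0.738). No member was called in either subtype.

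In L6-Syt6, where 1.67% of 13436 genes were called, no member was called. Slc17a6 was 28.8, 29.4, 30.9 and 34.5 CPM in barcode-zero and 21.6, 24.3, 22.0 and 23.6 CPM in barcode-high neurons, lower in 4 of 4 libraries without overlap. Its log2 difference of -0.37 (SE 0.06, edgeR adjusted p = 0.0114) did not reach the fold limit, and the edgeR adjusted p was 0.0868, 0.0677 and 0.0842 without unsorted 1, 2 or 3. The 4 oligodendrocyte markers were lower in barcode-high L6-Syt6 neurons in 4 of 4 libraries as well (51.0, 54.3, 50.3 and 30.8 against 39.2, 42.4, 47.5 and 30.0 CPM), which was not tested as a part of the Slc17a6 difference. The 6 microglial markers summed to 1.86 to 16.2 against 1.55 to 15.5 CPM and, like the astrocyte and endothelial lists, went both ways. Slc17a7 had a log2 difference of -0.01 (SE 0.05, edgeR adjusted p = 0.929), and its sign changed with the setting. Slc30a3 was 0.676, 0.652 and 1.39 CPM in unsorted barcode-zero neurons and 2.44, 3.07 and 4.37 CPM in barcode-high ones, but 7.43 and 0.833 CPM in the sorted library. Over all libraries its log2 difference of 1.06 (SE 0.67, edgeR adjusted p = 0.368) did not pass. Without the sorted library it was 1.88 (edgeR adjusted p = 1.01e-08), and with cells thinned to 10000 UMIs it was 2.11 (edgeR adjusted p = 0.00270). In the sorted barcode-zero group 12 of 94 neurons had under 10000 UMIs, and they held 18 of its 20 Slc30a3 UMIs. All of these levels are far below those of the Slc30a3-rich subtypes.

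**Figure D4:**
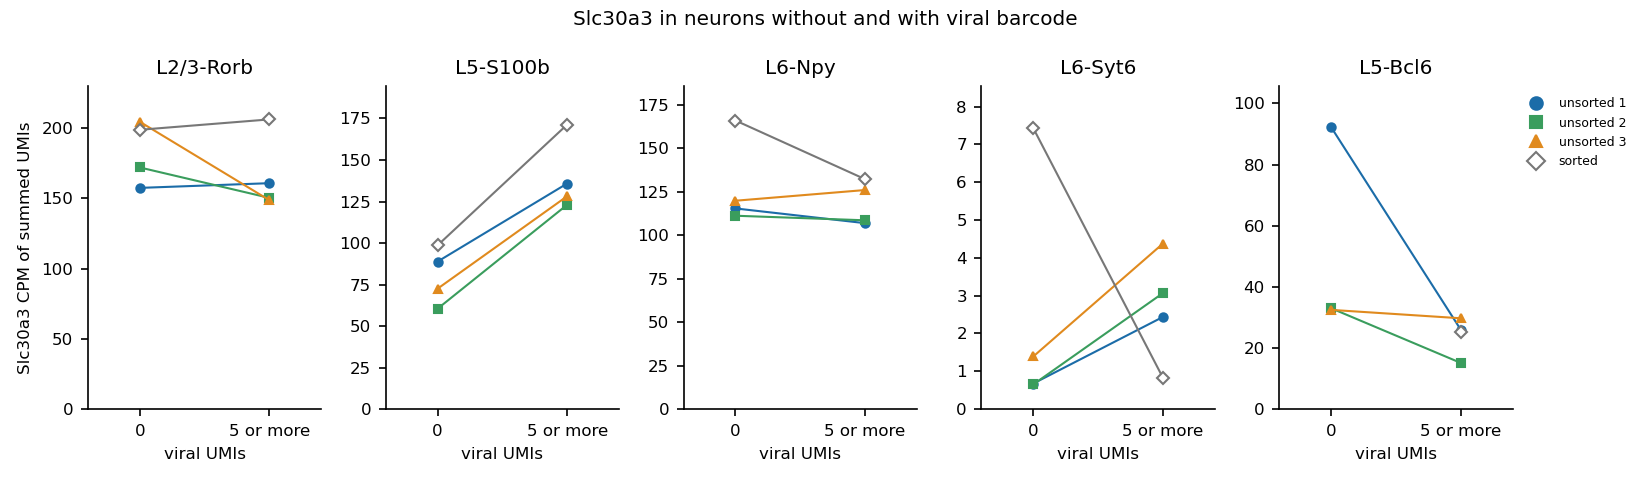
Slc30a3 CPM (y axis, linear, a scale of its own per panel) in neurons with 0 and with 5 or more viral UMIs (x axis) of 5 subtypes, with a line per library, except that the sorted library has only its barcode-high point in L5-Bcl6. All 4 lines climb in L5-S100b, from 60.5 to 98.6 up to 123 to 171 CPM, while in L6-Syt6 the sorted library (7.43 to 0.833 CPM) runs against the unsorted ones.

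L5-Bcl6 had too few barcode-zero neurons in the sorted library for the test. In unsorted 1, 2 and 3 its Slc30a3 level was 92.2, 33.0 and 32.5 CPM in barcode-zero and 26.0, 15.1 and 29.7 CPM in barcode-high neurons, the reverse order of L5-S100b in each library. These sums rest on 22, 19 and 20 barcode-zero neurons, were added after the other subtypes had been seen and were not tested. L2/3-Calb1, with 9 barcode-zero neurons in the sorted library, was likewise only described, also after the others had been seen. Its Slc30a3 level in unsorted 1, 2 and 3 was 108, 146 and 124 CPM in barcode-zero and 170, 117 and 158 CPM in barcode-high neurons, which is higher in 2 libraries and lower in 1. L5-Htr2c had 2 to 4 barcode-high neurons per library and was not compared.

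Genes whose pattern over the sums was most like that of a member were named by Pearson's r of log2(CPM + 1), among genes of at least 10 CPM on average. Over the 21 sums of 7 subtypes in 3 libraries, Slc17a7 was nearest to Dkk3 (0.98), Ank (0.93) and Acap3 (0.91), and Slc17a6 to Micu3 (0.97), the predicted gene Gm10600 (0.96, possibly counted with similar copies) and 3632451O06Rik (0.95). Slc30a3 was nearest to Slc39a10 (0.98), Cpne5 (0.98) and Chrm1 (0.97). Slc39a10 codes for the zinc importer ZIP10, and Chrm1 for a muscarinic acetylcholine receptor. With the inhibitory sums added (24 sums), Slc32a1 was nearest to Dlx2, Dlx1 and Dlx6os1 (0.99 each), of which Dlx1 and Dlx2 are interneuron transcription factors, and Slc17a8 to Senp7 (0.91), Polr2m (0.90) and Adarb1 (0.89). These are the highest of 9012 and 9143 genes and so are high by selection.

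Slc39a10 was 455 ± 3.23 CPM in L2/3-Calb1, 446 ± 15.7 in L2/3-Rorb, 395 ± 21.6 in L5-S100b and 369 ± 21.3 in L6-Npy (SD, n = 3). It was 285 ± 33.5 CPM in L5-Bcl6, 163 ± 6.10 in L5-Htr2c and 138 ± 3.09 in L6-Syt6. The 4 subtypes rich in Slc30a3 were thus the 4 highest in Slc39a10, over a much narrower range. Inhibitory cells had 75.5 ± 1.79 CPM, and there Lhx6 cells (72.3 ± 4.09) lay slightly under Adarb2 cells (78.7 ± 0.525), the reverse of the order of Slc30a3.

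Related genes were followed in lists by role, with called genes and medians set beside the median of all genes tested, which was 0.01 between excitatory and inhibitory cells. The counts below are read against the 40.4% of all genes called in this comparison and are a description. Of 20 tested genes for zinc transport and buffering, 2 were higher in excitatory neurons, among them Slc39a10 (log2 difference 1.79), and 3 in inhibitory cells, namely the metallothionein Mt2 (-2.77) and the zinc importers Slc39a13 (-0.98) and Slc39a6 (-0.73), with a list median of -0.03. Of 13 genes for glutamate supply and uptake, 3 were higher in excitatory neurons, led by the glutamate transporter Slc1a2 (2.34), and 4 were lower, led by the glutamine transporter Slc38a3 (-1.99) and the uptake transporters Slc1a3 (-1.65) and Slc1a6 (-1.30), with a median of -0.22. Slc1a2 and Slc1a3 are known mainly from astrocytes, and 4 astrocyte markers that include Slc1a3 summed to 1.44 to 4.46 CPM in excitatory and 7.79 to 14.3 CPM in inhibitory sums, whose part was not tested. Among genes for GABA uptake and breakdown, Abat (-2.65) and Aldh5a1 (-1.02), which break GABA down, were higher in inhibitory cells and the uptake transporter Slc6a11 (0.58) in excitatory neurons.

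Of 25 genes for the vesicle proton pump and its partners, 6 were higher in excitatory neurons and 2 lower, with a median of 0.31. The vesicle protein gene Sv2b was 617 ± 11.4 CPM in excitatory and 9.86 ± 0.676 CPM in inhibitory sums (SD, n = 3, log2 difference 6.08). Its paralogue Sv2c had the opposite sign (-2.58), and the vesicle gene Syn1 (0.97) and the pump subunit Atp6v1d (0.83) followed Sv2b. Of 4 other vesicular transporters tested (median -0.17), the lysosomal and vesicular Slc17a5 was higher in excitatory neurons (0.64). Slc18a3, the acetylcholine transporter of vesicles, had 80 UMIs in 58 unsorted inhibitory cells and none in 7765 unsorted excitatory neurons, which allows up to 0.0171 CPM there, and it was called higher in inhibitory cells. Of these UMIs 79 were in Adarb2 cells, and none were in Lhx6 cells.

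Between the inhibitory lineages 21.3% of all genes were called (median of all genes 0.00), and the counts by list are a description beside that share. Higher in Adarb2 cells were 3 of 20 zinc genes, Mt2 (1.28), Mt1 (1.01) and Slc39a11 (0.78), with a list median of 0.10, the GABA uptake gene Slc6a11 (1.82), 1 of 3 other vesicular transporters, Slc18a3 (median -0.02), and 1 of 25 pump and partner genes, Sv2c (3.37), with a median of -0.06. Of 12 glutamate supply genes (median -0.21) Slc1a2 (2.20) and Glul (1.15) were higher and Slc1a1 (-0.70) was lower. Gad1 and Gad2 chose the inhibitory cells and were not counted. In the barcode contrasts, Slc1a2 rose in barcode-high L5-S100b and L6-Npy neurons (0.53 in both), Slc1a6 rose in L6-Syt6 (0.62) and Sv2c fell by 0.53 in L6-Npy. No other gene of these lists was called in these 4 subtypes, and no list gene was called in L2/3-Rorb.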

How the data were processed

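Cells from 4 libraries (Chromium 3' v3) were analysed. The authors aligned reads and counted UMIs with Cell Ranger on an mm10 reference to which the viral barcodes had been added, and deposited raw UMI counts of called cells without normalization, with a table of the excitatory neurons they kept and clustered. The deposited counts were used as they are. The viral feature (0.0319% to 0.0384% of UMIs) was left out of totals and tests. A cell needed 500 to 8000 detected genes, 1000 to 60000 UMIs and a mitochondrial share under 20%, which each deposited neuron met. No doublet caller was run: 37 unsorted inhibitory cells also passed the microglial or endothelial limit, and 17 excitatory neurons had more than 3 UMIs of Gad1 and Gad2. Microglia-like cells had at least 10 UMIs of C1qa, C1qb and C1qc and at most 3 of Cldn5, Flt1 and Ly6c1, and endothelial-like cells the reverse. Recomputed totals differed from the deposited ones by at most 70 UMIs per cell.

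Sums of counts over the cells of a group in 1 library entered edgeR 4.0.16 (quasi-likelihood, TMM, filterByExpr), with the library as a block because both groups compared came from the same libraries, with DESeq2 1.42.0 as an alternative, in R 4.3.3. Tests were run on simulated counts first. A floor of 3 counts stands for a count of 0, and intervals and floors cover counting error only. Thinning drew each cell to 10000 or 2000 UMIs and left out shallower cells. The members and gene lists were chosen with earlier results of these data known. Named were the members, the 3 most similar genes of each, up to 4 called genes of a list by size of difference, and genes that chose cells. A list gene that met this rule is not reported here. Slc18a3 counts in cells, marker peptide groups and the cells rich in Slc17a8 were looked at after values had been seen.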

Additional observations from a re-analysis of the deposited data

Results flagged for a closer look

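In models of barcode and subtype together, which were added after the data had been seen, the difference between barcode-high and barcode-zero neurons was compared between the subtypes of 6 pairs. Of 17 values for the members, 3 had an adjusted p under 0.05 (edgeR's quasi-likelihood test with Benjamini-Hochberg adjustment over all genes). The Slc30a3 difference was larger in L5-S100b than in L6-Npy by 0.92 on the log2 scale (SE 0.12, edgeR adjusted p = 7.19e-06), where 1.55% of genes had such a p. It was larger in L5-S100b than in L2/3-Rorb by 0.97 (SE 0.13, edgeR adjusted p = 3.29e-06), with 1.06% of genes. The Slc17a7 difference, L6-Syt6 minus L5-S100b, was -0.28 (SE 0.07, edgeR adjusted p = 0.0195), with 4.60% of genes. Barcode-zero neurons were shallower than barcode-high ones in each of these subtypes and libraries, and the part of depth in these interactions was not tested.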

How the results depend on the processing

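Barcode contrasts gave counts of called genes that moved with the setting, given here as main count, then alternatives. L6-Syt6 had 225, with 75 without the library block, 25 at 1 or more barcode UMIs and 29 to 325 without 1 library (73, 29 and 79 without unsorted 1, 2 or 3). L5-S100b had 318, with 146 by DESeq2, 56 without the block, 202 at 1 or more barcode UMIs, 177 when thinned and 180 (without unsorted 2) to 285 without 1 library. L6-Npy had 84, with 11 by DESeq2, 0 by edgeR without the block (406 at an unadjusted p under 0.05), 27, 51 and 46 (without unsorted 3) to 75 in the same order. L2/3-Rorb had 15, with 0 by DESeq2 (136 at an unadjusted p under 0.05), 28 without the filter on low counts, 0 by edgeR without the block (285), 9, 5 and 3 (without unsorted 1) to 35 (without unsorted 2). Adarb2 against Lhx6 had 2526, and 1518 by DESeq2. Counts for excitatory against inhibitory cells stayed within 1.5 times.

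Slc30a3 in L5-S100b was called in each setting tried, the fit without the replicate block included. Slc17a8 gave -1.88 by DESeq2 between excitatory and inhibitory cells, and -3.85 to -0.66 without 1 library. Between lineages it gave 3.78 by DESeq2. Slc17a7 in L6-Syt6, near 0, changed sign to 0.00035 without the filter, 0.0025 at 1 or more barcode UMIs and 0.025 without the sorted library (-0.041 to 0.025 without 1 library). The log2 ratio of L5-Htr2c to L6-Syt6 for Slc17a6 was 2.50 with TMM factors and 2.81 when thinned, that of L5-S100b to L5-Htr2c for Slc17a7 0.99 with TMM factors, and that of L2/3-Rorb to L6-Syt6 for Slc30a3 5.97 as a mean over cells. The causes were not tested. Of 266 levels and ratios recomputed, 22 moved by more than the spread between libraries. The thinned barcode fits were chosen after seeing the data. In simulated data, 80% to 98% of genes changed 2-fold and 44% to 64% of genes changed 1.5-fold were called. Only genes of higher counts were changed there, at a fixed dispersion, so recovery at low counts was not covered.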

Other observations

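The sorted library held 4 L5-Htr2c neurons, too few for a level. Together they had 88 UMIs of Slc17a7, 16 of Slc17a6, 21 of Slc17a8 and 1 of Slc30a3. Its 5 inhibitory cells had 54 UMIs of Slc32a1 and 8 of Slc30a3, and none of Slc17a6 or Slc17a8. Among the 3183 unsorted microglia-like cells, 100 had more than 3 UMIs of Slc17a7 and held 2460 of the 2733 Slc17a7 UMIs of the class.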
